A study of Homo sapiens with 12 samples.

Results

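The control-leaning regions are stretches of mRNA with an N4-acetylcytidine (ac4C) peak in each of the 3 control libraries of SW620 cells and in at most 1 of the 3 NAT10 knockdown libraries. Peaks of the 6 libraries that overlapped by 1 base or more on the same strand were merged, which gave 41755 regions, and 713 of these (1.71%) were control-leaning. Of the 713 regions, 142 (0.34% of all regions) had no peak in any knockdown library and 571 had a peak in 1 of them. The regions were selected on the presence of peaks in the same 6 libraries, so these counts and shares describe the selection and no test was made of them.

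ac4C is an acetylated form of cytidine in RNA. NAT10 is the enzyme known to write it, on ribosomal RNA and transfer RNA and, as acetylated RNA immunoprecipitation has reported, on mRNA, where the mark has been linked to mRNA stability and translation. In acRIP-seq an anti-ac4C antibody pulls down RNA fragments, and a peak is a place where the pulled-down fragments pile up. A peak therefore depends on how much of the mRNA is present as well as on its acetylation, and the peak lists alone cannot tell these apart.

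SW620 is an established human colorectal cancer cell line. The 3 control libraries came from cells labelled shControl with the genotype WT, and the 3 knockdown libraries came from cells labelled shNAT10 with the genotype NAT10 knockdown. According to the study's methods the shRNA was delivered by lentivirus into stably selected cells, and no drug treatment is given in the labels of these samples. The labels do not say which NAT10 shRNA was used, and 6 input libraries of the same cells were not analysed here. Per library, 18241, 22619 and 20063 peaks were given for the controls and 28752, 17877 and 19047 for NAT10 knockdown, with scores from 50 to 3233 and 7.61% to 13.7% of the peaks of a library at exactly 3100. The epithelial markers EPCAM, CDH1, KRT8, VIL1 and CDX2 had peaks in all 6 libraries, KRT19 and LGALS4 had one in 1 library of each group, and KRT18, KRT20 and CDX1 had none. Of the markers of other cells, COL1A2, PDGFRB, PTPRC and CD3E had no peak, and COL1A1 had peaks in 2 control libraries and 1 knockdown library. NAT10 itself had 1, 0 and 2 peaks in the control libraries and 2, 0 and 1 in the knockdown libraries. These peak numbers overlapped between the groups and do not measure the NAT10 level, so the knockdown could not be checked here.

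Control-leaning regions covered the annotated start of 92 genes for which a start sequence was at hand. The first 30 transcribed bases of 8 of them are shown: the 4 starts whose regions had the highest ranks among those with 1 knockdown peak, and the 4 highest among those without. Each is read 5′ to 3′ on the transcribed strand from RefSeq on GRCh38.p14. Capitals mark copies of CNNCNNCNN, the C-rich pattern that has been described around ac4C sites, and overlapping copies run together.
EIF4A3 at chr17:80147099-80147128 (minus strand): acagcgaggtCGGCAGCGGCACagcgaggt
HDAC2 at chr6:113971119-113971148 (minus strand): CCCCTCCTCGCgagttggtgCCGCTGCCAc
NOL12 at chr22:37686343-37686372 (plus strand): gCTACACCCGgaagtgtcttcagggagagg
TRIM37 at chr17:59106851-59106880 (minus strand): gCAGCTTCTCtCGCCGCCGCGCCCCCAGct
CLEC11A at chr19:50723364-50723393 (plus strand): agagacgaggagaggaacaggaagagagaa
ANKRD18A at chr9:38620567-38620596 (minus strand): actcggtctgagagttcggagcgctgaggt
SPTAN1 at chr9:128552587-128552616 (plus strand): gCCACTACCCGCTGCGGagtgaacggtgtg
PTPRZ1 at chr7:121873161-121873190 (plus strand): agaCCGCGGCCGCCGCAGCCGgcgaaagag
The regions at the first 4 starts had a peak in 1 knockdown library and those at the last 4 had none. The CLEC11A and ANKRD18A starts held no copy within these letters. Over the first 50 transcribed bases, 63 of the 92 starts (68.5%) held the pattern on the transcribed strand, beside 2393 of 3553 starts covered by any region (67.4%) and 9778 of all 15842 starts (61.7%). The mean share of C was 30.8%, 31.0% and 29.4% in the same order. The starts covered by control-leaning regions were thus close to those covered by any region in both measures.

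The knockdown peaks of the control-leaning regions were unevenly spread over the knockdown libraries. Knockdown replicate 1 held the peak in 395 regions, replicate 2 in 70 and replicate 3 in 106. Replicate 1 thus held 69.2% of these peaks, while its list made up 43.8% of all knockdown peaks. When the same number of highest-scored peaks was taken from each library, 658 regions were control-leaning, and knockdown replicate 1 held the peak in 254 of them, replicate 2 in 128 and replicate 3 in 124. Replicate 1 then held 50.2% of the single knockdown peaks, while each knockdown list was equally long, at 17877 peaks. Its share was 74.6% with the 50% highest scores of each library alone, and 63.3% where a library counted only with 50% or more of the region covered. Under the mirrored rule, 1359 regions (3.25% of all) had a peak in the 3 knockdown libraries and in at most 1 control library. Of these knockdown-leaning regions, 342 had no control peak, and control replicates 1, 2 and 3 held the only control peak in 207, 308 and 502.

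The peaks of the control-leaning regions had low ranks within their libraries. The rank of a peak is given as the percentile of its score among all peaks of its own library, so that 100 is the highest. The median percentile over the 713 regions was 38.4 in control replicate 1, 44.1 in replicate 2 and 39.5 in replicate 3, with a mean of 40.7 ± 3.04 (SD, n = 3). In the 9195 regions with a peak in all 6 libraries the same medians were 67.9, 73.0 and 71.5, with a mean of 70.8 ± 2.64 (SD, n = 3). The 3 medians of the control-leaning regions were all below those of the shared regions. The regions without any knockdown peak ranked lower again, with medians of 28.5, 35.1 and 30.6 and a mean of 31.4 ± 3.37 (SD, n = 3).

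The weakest of the 3 control peaks of a region was often near the end of its list. The median of the lowest control percentile was 20.9 over all control-leaning regions, 12.7 over those without a knockdown peak and 58.9 over the shared regions. In 193 control-leaning regions (27.1%) the lowest control percentile was under 10, and in 169 (23.7%) it was at least 50. Among the 142 regions without a knockdown peak these numbers were 57 (40.1%) and 16 (11.3%). Most regions with a strong peak in every control library had their knockdown peak in replicate 1, which held it in 131 of the 169.

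Where a region kept 1 knockdown peak, its rank differed between the libraries that held it. In knockdown replicate 1 the median percentile of the retained peak was 57.5, beside 43.1 for the mean of the 3 control peaks of the same regions. In replicate 2 it was 26.6 beside 38.5, and in replicate 3 it was 24.2 beside 36.5. The knockdown peak ranked below the control mean in 144 of 395 regions (36.5%) for replicate 1, in 53 of 70 (75.7%) for replicate 2 and in 75 of 106 (70.8%) for replicate 3. These percentiles come from lists of unequal length, and the same score can take different percentiles in different lists. A score of 3100 stood at percentile 92.7 in knockdown replicate 1 and at 96 in control replicate 1. The shared regions had a median of 78.0 in knockdown replicate 1, the longest list, beside 69.2 and 70.4 in replicates 2 and 3, and the part of list length in these values was not tested. The 4 peaks had the same first and last base in 336 of the 571 regions (58.8%).

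Regions just outside the rule had ranks close to those inside it. The median of the mean control percentile was 29.6 for regions with 3 control peaks and no knockdown peak, 39.9 with 1 knockdown peak and 45.1 for the 1213 regions with 2 knockdown peaks. It was 26.3 for the 987 regions with 2 control peaks and no knockdown peak and 32.0 for the 1704 with 2 control peaks and 1 knockdown peak. Of the 1213 regions, 43 were at 3100 or above in the 3 control libraries. The first 2 of these by the length of their shortest control peak were in POM121, a nuclear pore protein, and PHLDA1, both at a score of 3100 in the 3 control libraries and in knockdown replicates 2 and 3 and without a peak in knockdown replicate 1. A region in NKD2, an inhibitor of WNT signalling, and one in PAGR1 had a score of 3100 in control replicates 1 and 2. Neither region had a peak in the remaining 4 libraries. Outside its region NKD2 had 2, 2 and 1 peaks in the knockdown libraries, and PAGR1 had 1 in each. The PAGR1 region lay 71 bases from a peak of each knockdown library.

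The highest-ranked regions without a knockdown peak lay in PCSK1N, CLEC11A, DAPK3, DHX30 and ITGB4. The first was in PCSK1N (chrX:48831094-48831455), which encodes an inhibitor of a prohormone convertase, with scores of 3138, 3100 and 3100 in control replicates 1, 2 and 3. The region in CLEC11A (chr19:50723329-50723672), a secreted growth factor, and the region in DAPK3 (chr19:3970921-3971070), a kinase linked to cell death, had a score of 3100 in each control library. These 3 were the only control-leaning regions without a knockdown peak that reached 3100 in all control libraries, and the first and last base of each were the same in the 3 libraries. The same mRNAs carried knockdown peaks at other places. Along the genome, the nearest knockdown peak on the strand lay 413 bases from the PCSK1N region, 1349 from the CLEC11A region and 982 from the DAPK3 region. These distances were the same in each of the 3 knockdown libraries. Outside the region, DAPK3 had 3 peaks in each of the 6 libraries and CLEC11A had 1 in each.

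In DHX30 (chr3:47825028-47825247), an RNA helicase, the scores were 1277, 3100 and 3100 in the control libraries. Outside this region the gene had 3, 3 and 4 control peaks and 3 peaks in each knockdown library. In FBH1 (chr10:5890203-5890346), a DNA helicase with an F-box, they were 1091, 1565 and 1397. In SNUPN (chr15:75625336-75625693), which carries spliceosomal RNPs into the nucleus, they were 476, 3228 and 913. The SNUPN region lay 77 bases from a peak of knockdown replicate 1 and 156 bases from peaks of replicates 2 and 3, so every knockdown library had a peak beside the region.

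ITGB4, SSH3, SPTAN1 and SUN1 also belonged to the first 12. In ITGB4, the integrin subunit that anchors epithelial cells to laminin, the region at chr17:75724694-75724782 had scores of 1264, 2149 and 3100. SSH3 (chr11:67304773-67305007), a phosphatase of the family that acts on the actin-severing protein cofilin, had 823, 1213 and 2994. SPTAN1 (chr9:128552558-128552696), a spectrin of the membrane skeleton, had 781, 1754 and 1001. SUN1, an inner nuclear membrane protein that links the nucleus to the cytoskeleton, had 478, 1076 and 794 at chr7:817280-817499. All 4 genes kept peaks elsewhere in the knockdown libraries: outside its region SPTAN1 had 1, 2 and 3 peaks in the control and 7, 5 and 5 in the knockdown libraries. ANKRD18A (chr9:38620080-38620660) had scores of 930, 1408 and 1149 at its start and no other peak in any library. The remaining region of the first 12 lay in no listed gene (chr17:352712-353097), with scores of 1755, 1604 and 1501.

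**Figure D1:**
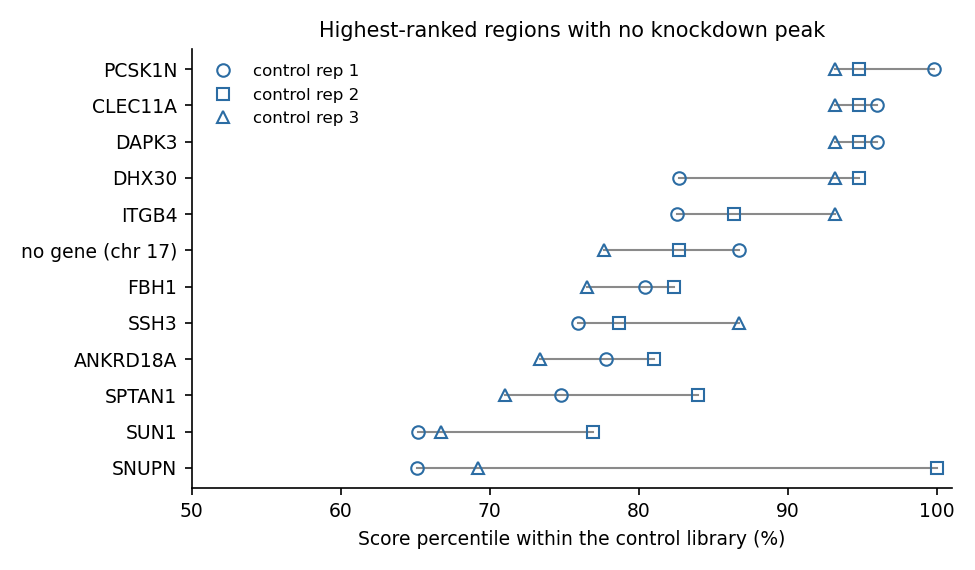
Each row is one of the 12 highest-ranked control-leaning regions without a knockdown peak, named by its gene, and the symbols give the score percentile (horizontal axis, from 50 to 100) in the 3 control libraries. The spread within a row is narrow for CLEC11A and DAPK3 and wide for SNUPN, which runs from 65.1 to 100.

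A small group of regions was at 3100 or above in every control library and still missed most knockdown libraries. They numbered 27 of the 713 (3.79%), beside 1022 of the 9195 shared regions (11.1%). Knockdown replicate 1 held the peak in 22 of them, replicate 2 in 1, replicate 3 in 1, and 3 had none. In 23 of the 24 with a knockdown peak that peak was at 3100 or above as well, and in 21 it had the same first and last base as the control peaks. The exception was PPM1B, a protein phosphatase, with a score of 2002 in knockdown replicate 1. Among regions of equal rank those with the longest control peaks are named. RIPOR1 had a region of 1398 bases at 3100 in the 3 control libraries and in knockdown replicate 1. ING1, a chromatin reader and tumor suppressor, had one of 1008 bases with the same pattern, and SF1, the splicing factor that binds the branch point, had one of 483 bases. UQCC3, an assembly factor of respiratory complex III, kept a peak at 3100 in knockdown replicate 2, and STK24, a kinase of the STE20 family, in replicate 3. A region of 515 bases in no listed gene (chr10:28532493-28533007) kept its peak in replicate 1.

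Fewer control-leaning regions lay at gene starts than shared regions, but more than the average of all regions. Of the 564 control-leaning regions in a gene with a known start, 118 (20.9%) lay within 50 bases of it, beside 28.3% of the shared regions, 13.9% of all regions and 11.5% of the knockdown-leaning regions. The share was 18.1% (21 of 116) without a knockdown peak, 23.9% (76 of 318) with the peak in knockdown replicate 1, 10.9% (6 of 55) in replicate 2 and 20.0% (15 of 75) in replicate 3. The first 10% of the gene span held 168 control-leaning regions (29.8%) and the last 10% held 83 (14.7%). Across all regions these shares were 21.6% and 15.9%. The shared regions had both the highest ranks and the highest share at gene starts, and the part of rank in these shares was not tested.

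**Figure D2:**
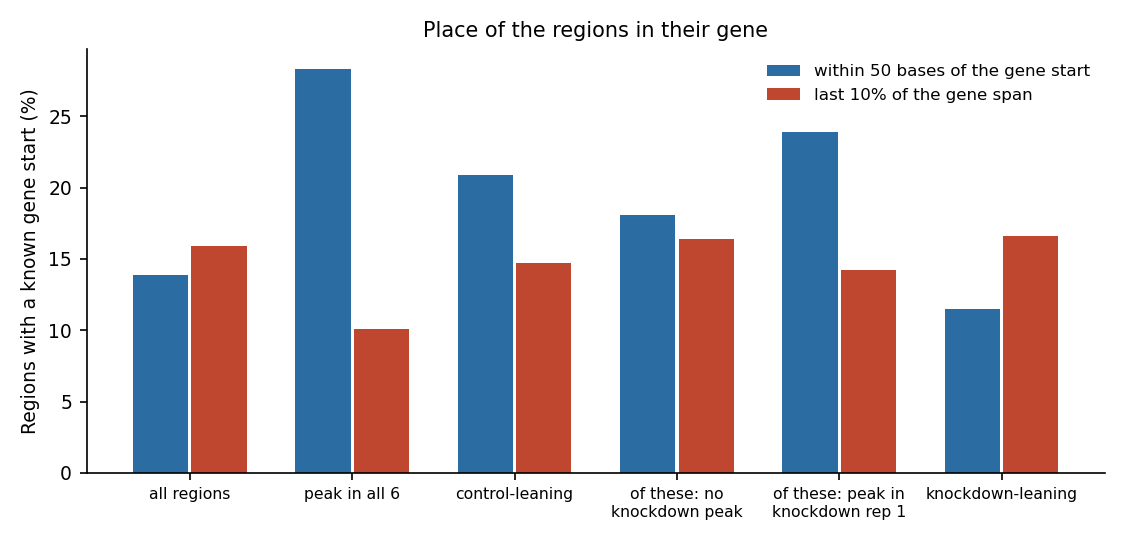
Bars give the percent of regions, among those in a gene with a known start, that lay within 50 bases of the gene start or in the last 10% of the gene span. The control-leaning regions (20.9% at the start) stand between all regions (13.9%) and the regions with a peak in all 6 libraries (28.3%).

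The median length of control-leaning regions was 212 bases, with quartiles of 136 and 413 and a range from 18 to 3284, beside 284 bases for the shared regions and 180 for all regions. Lengths run from the first to the last base on the genome and can hold introns. The 3 control peaks had the same ends in 447 regions (62.7%), beside 75.1% of the shared regions and 73.2% of the 11121 regions with a peak in the 3 control libraries. In the regions without a knockdown peak the share was 50.7%. Of the 713 regions 680 (95.4%) lay in a protein-coding gene.

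The next measure was the distance to peaks of the knockdown libraries that had none in the region. Distances run along the genome and can hold introns, so on the mRNA a peak may lie nearer. Such a peak lay within 200 bases on the same strand in 20 of 713 regions (2.81%, exact 95% interval 1.72% to 4.30%, which covers counting error only). Among the regions without a knockdown peak this held for 8 of 142 (5.63%, 2.46% to 10.8%). Over all 8344 regions with no knockdown peak it held for 3.6% (3.21% to 4.02%), which lies inside the interval of the 142 regions. For the 571 regions with 1 knockdown peak it was 2.10% (1.09% to 3.64%), and over all 14858 regions with 1 knockdown peak it was 1.92%. Within 500 bases it held for 54 of the 713 (7.57%). For the 142 regions the median distance to the nearest knockdown peak was 3420 bases, with quartiles of 1290 and 14879.

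For the 643 genes that hold a control-leaning region, the peaks outside those regions were counted. The rule shapes this count, since the regions left out held more control than knockdown peaks. Knockdown-leaning regions of the same genes stayed in. No conclusion about these genes is therefore drawn from the test below. Per 1000 peaks of a library, 78.6, 80.0 and 85.5 peaks lay elsewhere in these genes in the control libraries and 79.1, 85.3 and 84.4 in the knockdown libraries. The ranges of the groups overlapped. The means were 81.3 ± 3.66 and 82.9 ± 3.36 (SD, n = 3 each), a difference of 1.6 with p = 0.8 by a two-sided exact permutation test, for which 0.1 is the smallest p that 3 against 3 libraries allow. For the 132 genes of regions without a knockdown peak the difference was -0.114 (exact permutation p = 0.9). Peaks shared by all 6 libraries in the same genes (743 regions) had median percentiles of 64.6, 71.3 and 73.6 in the control and 76.7, 69.3 and 71.5 in the knockdown libraries. Over all shared regions, of which the 743 are a part, these were 67.9, 73.0 and 71.5 against 78.0, 69.2 and 70.4. Knockdown replicate 1 had the highest median in both sets, while the order of control replicates 2 and 3 differed.

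Most of these genes kept ac4C peaks in the knockdown libraries. Of the 643 genes, 393 had other peaks in all 3 knockdown libraries, and 97 had no other peak in any of them, of which 60 had no other peak in any library. In 17 genes there was a control-leaning region and no knockdown peak at all. No share over all genes with a peak is set beside these counts, so they only describe the member genes. The region was above the middle of all 3 control lists in ANKRD18A, described above, in HNRNPDL and PTPRZ1, and in 1 of the 2 regions of PKIB. HNRNPDL, an RNA-binding protein of the hnRNP family, had 1 region of 3284 bases with scores of 1142, 1086 and 555 in control replicates 1, 2 and 3. Its control peaks overlapped only in part: 82422846 to 82424883 in replicate 1, 82424625 to 82426129 in replicate 2 and 82424752 to 82426129 in replicate 3. PKIB, an inhibitor of protein kinase A, had 2 regions, with scores of 543, 1344 and 532 at chr6:122610375-122610535 and of 176, 788 and 205 at chr6:122633283-122633367. PTPRZ1, a receptor tyrosine phosphatase, had scores of 268, 314 and 512 over its start. For HNRNPDL all 3 percentiles (81.1, 77.1 and 59.6) were above the middle of the lists, and for PTPRZ1 they were 52.3, 53.1 and 57.9.

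In the other 13 genes without any knockdown peak, at least 1 control peak lay at or below the middle of its list. ALPI, the intestinal alkaline phosphatase, had scores of 1038, 141 and 352 over 1173 bases. CKB, the brain-type creatine kinase, had 382, 51.5 and 205. SUCLA2, a subunit of a citric acid cycle enzyme, had 160, 549 and 81.0. MRPS12, a protein of the mitochondrial ribosome, had 142, 609 and 60.4, and USP47, a deubiquitinating enzyme, had 129, 73.0 and 187. In CKB and MRPS12 the 3 control libraries differed widely, and 1 of them was near the lowest score that the lists hold. TSPAN5, a tetraspanin, had 130, 229 and 145. The zinc finger genes ZNF595 and ZNF776 were low too, and ZNF776 had 189, 530 and 77.2. C10orf143, LACTB2, RAB31, SEPTIN10 and SIT1 were the remaining genes, of which SEPTIN10 had 216, 1472 and 159.

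In 40 genes there were 2 or more control-leaning regions, and 4 genes held 3. ITGB4 held the strongest group. Beside the region without a knockdown peak, it had a region at chr17:75727651-75727855 with a score of 3100 in the 3 control libraries and in knockdown replicate 1. The third, at chr17:75750680-75750860, had scores of 1445, 1864 and 3100 in the control libraries and 3100 in knockdown replicate 1. No ITGB4 region of the 3 had a peak in knockdown replicates 2 or 3. Outside these regions ITGB4 had 6, 8 and 4 peaks in the control libraries and 9, 3 and 4 in the knockdown libraries, which overlapped.

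The other genes with 3 regions were weaker. CGNL1, a protein of epithelial cell junctions, had scores of 228, 118 and 715 in its region without a knockdown peak. Elsewhere it had 6, 9 and 8 control peaks and 6, 4 and 6 knockdown peaks. CYFIP2, of the complex that drives actin branching, had scores of 103, 85.4 and 310 in its region without a knockdown peak. DNAH1, an axonemal dynein, had 2 regions without a knockdown peak, with scores of 89.5, 155 and 601 and of 104, 51.9 and 270. EPHA2, an ephrin receptor, had 2 regions, both with the peak in knockdown replicate 1. One had scores of 1043, 2974 and 339 in the control libraries and 3100 in that library, and the other had 232, 144 and 2599 and 463. KDM4A, a histone demethylase, had 440, 230 and 267 in a region that kept 273 in knockdown replicate 1, and 73.3, 322 and 78.9 in a region without a knockdown peak. COL16A1, a collagen, had 2 regions of 54 bases each, of which 1 kept its peak in knockdown replicate 1 and the other in replicate 2.

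Of the 12145 protein-coding genes with a peak in any library, 643 (5.29%) held a control-leaning region. Among receptor tyrosine kinases it was 4 of 34 (11.8%), EPHA2, EPHB2, EPHB6 and LMTK2. Among collagens, laminins and integrins it was 6 of 52 (11.5%), COL16A1, COL18A1, COL6A1, ITGB4, LAMB1 and LAMB3. Among histone-modifying enzymes it was 6 of 74 (8.11%), HDAC2, HDAC4, KDM4A, KDM4B, PRDM10 and PRDM11. Knockdown-leaning regions lay in 6, 7 and 15 genes of these 3 lists in the same order, beside 1143 of all 12145 genes. The 3 lists thus held at least as many genes with a knockdown-leaning region as with a control-leaning one. These are counts of a few genes and no test was made of them.

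Within these families the values differed widely. LAMB3, a laminin chain of the epithelial basement membrane, had scores of 2204, 1392 and 3100 in the control libraries and 3100 in knockdown replicate 1. LAMB1 had 182, 324 and 132 and no knockdown peak in its region. COL6A1 had 508, 1743 and 2002 and kept 826 in knockdown replicate 1. Of the ephrin receptors, EPHB2 had 54.6, 102 and 102, the first of which is close to the lowest score in the lists, and no knockdown peak in its region. Elsewhere EPHB2 had 7, 8 and 9 peaks in the knockdown libraries. LMTK2 had 53.6, 52.3 and 72.8, and 5, 5 and 3 knockdown peaks elsewhere. HDAC2, a histone deacetylase, was at 3100 in the 3 control libraries and in knockdown replicate 1 over its start. KDM4B had 1293, 806 and 1863 and kept 3170 in that library. The regions in LAMB3, COL6A1, HDAC2 and KDM4B thus had their single knockdown peak in replicate 1, while those in LAMB1, EPHB2 and LMTK2 had none.

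Of 33 SR and hnRNP genes with a peak, 2 (6.06%) held a control-leaning region, HNRNPDL and SRRM1. SRRM1, a coactivator of splicing, had scores of 847, 1513 and 348 in the control libraries and 319 in knockdown replicate 1. Of 37 translation initiation factors 1 (2.70%) held one: EIF4A3, the RNA helicase of the exon junction complex, was at 3100 over its start in the 3 control libraries and in knockdown replicate 1. Of 47 mitochondrial ribosomal proteins 3 (6.38%) held one, and of 23 cytosolic ribosomal proteins with a peak none did. MRPL2 had 791, 1045 and 1961 and kept 3100 in knockdown replicate 1, and MRPL55 had 224, 240 and 78.6 and kept 334 there.

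Among signalling genes, 2 of 33 PI3K, AKT and mTOR genes (6.06%) held a control-leaning region, beside 5.29% of all genes with a peak. RPTOR, the scaffold of mTOR complex 1, had scores of 58.5, 62.5 and 257 and no knockdown peak in its region, while elsewhere it had 12, 14 and 21 control peaks and 17, 19 and 16 knockdown peaks. PIK3C2B, a class II PI3-kinase, had 53.3, 405 and 96.1 and kept 157 in knockdown replicate 1. Both regions thus lay near the lowest score in at least 1 control library. Of 51 WNT genes 2 (3.92%) held one. ZNRF3, a ubiquitin ligase that removes WNT receptors, had 129, 94.7 and 414 and no knockdown peak in its region. LGR6, a receptor for R-spondin, had 159, 363 and 932 and kept 78.4 in knockdown replicate 3. Of 47 MAP kinase genes 3 (6.38%) held one, and MAP4K4 had 1805, 3100 and 3192 and kept 3100 in knockdown replicate 1. More genes of each list held a knockdown-leaning region: 6 PI3K, AKT and mTOR genes, 6 WNT genes and 13 MAP kinase genes.

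Zinc finger genes had 19 of 437 (4.35%), solute carriers 12 of 246 (4.88%) and ubiquitin ligases and proteases 12 of 257 (4.67%). Kinesins and dyneins had 4 of 60 (6.67%) and homeobox genes 3 of 54 (5.56%). Respiratory chain genes had 2 of 78 (2.56%), histones 1 of 50 and tyrosine phosphatases 1 of 25. Of 66 cadherins and protocadherins none held a control-leaning region. NAT10 and THUMPD1, which work together in RNA cytidine acetylation, held none. The highest-ranked of these regions was in H2AC17, a histone gene whose only region had a score of 3100 in the 3 control libraries and in knockdown replicate 1. SLC12A7, a potassium chloride cotransporter, had 832, 301 and 3100 and no knockdown peak in its region.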

How the data were processed

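acRIP-seq peaks of 3 control and 3 NAT10 knockdown immunoprecipitation libraries were used. The authors deposited 1 list of mRNA peaks per library, with position, strand and a score of unstated definition whose peak names follow the form that MACS gives. The aligner, the caller's settings and the annotation were not given in the sources used here. The submitters' processing notes name the genome build GRCh38. Depth is unknown, since the lists hold no counts. The 6 input libraries were not analysed here.

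Peaks overlapping by 1 base or more on a strand were merged, and scores were ranked within each library. A region was assigned to the protein-coding genes of RefSeq GRCh38.p14 that hold its midpoint on the same strand. For 4214 of 20056 genes the tables at hand gave no strand or start, and these took regions of either strand where no other gene did. Start sequences came from RefSeq. Values and intervals were computed with Python 3.11.15, numpy 2.4.6 and scipy 1.17.1, and the merging was tested on simulated data.

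Peaks elsewhere in the member genes in control and knockdown libraries were set against each other by an exact permutation test, two-sided. The labels do not say that replicates were separate cultures, so the p-value measures only the spread between these libraries.

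The regions, gene lists and tests were chosen with earlier results of these data known. The genes named were the 12 regions without a knockdown peak and the 6 with 1 whose lowest control percentile was highest (ties, which were many at a score of 3100, went to the region with the longer shortest control peak), genes with several regions, up to 4 genes of each of 21 gene lists, and 4 regions just outside the rule. Genes without any knockdown peak, PPM1B, the genes of the printed starts and further genes of 2 lists (collagens, laminins and integrins, and histone-modifying enzymes) were added after their values were seen. Alternatives were a filter on score, equal peak numbers, merging without strand, a coverage minimum, other distances and leaving out each library. The result of 1 marker gene and of 1 gene list is not reported here.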

Additional observations from a re-analysis of the deposited data

How the results depend on the processing

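With the 50% highest scores of each library alone, 438 regions were control-leaning and 84 had no knockdown peak, the mean of the control medians was the 68.9 percentile, and 1.37% had a nearby knockdown peak. Only 169 of the 713 regions (23.7%) overlapped those 438, and 491 (68.9%) overlapped the regions found with equal peak numbers, where the mean of the medians was 47.6. Leaving out 1 library asks for fewer libraries by construction. It gave 1333 to 1758 control-leaning regions, 212 to 538 without a knockdown peak and mean medians of 31.8 to 45.1. The share with a nearby knockdown peak was then 1.18% to 3.36%, with 1.18% without knockdown replicate 1, and it was 7.57% at 500 bases. The difference in peaks elsewhere in the genes was 6.20 to 15.1 per 1000 peaks with a library left out (exact permutation p from 0.2 to 0.4). The rule shapes these values as well, since it chose the regions to leave out of the count anew each time. No conclusion about the genes is drawn from them. The difference turned to -0.114 for genes of regions without a knockdown peak. With the replicate block it was 1.6 (exact sign-flip p = 0.75, of which 0.25 is the smallest possible). Same-numbered libraries correlated at 0.0295, 0.00234 and 0.0318 in their deviations, so the numbers were not taken as pairs. The remaining alternatives kept their direction and their side of the threshold. The cause of these shifts was not tested. Scores at 3100 have no order, and without counts a peak that is not listed may be just under the caller's threshold.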
